A study of Homo sapiens with 22 samples.

Results

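The genes described here are the 240 protein-coding zinc finger genes of human chromosome 19 that carry a ZNF symbol, out of the 36859 genes of the expression table. They were chosen by name and position alone, as genes whose symbol is ZNF followed by a number and at most 1 letter and which lie on chromosome 19 of GRCh38, so no expression value entered the choice. The table covers 22 RNA-seq libraries of RPTEC, a human renal proximal tubule epithelial cell line immortalized with hTERT. Libraries came in 11 groups of 2. In 2% serum these were WT cells, WT cells exposed during 72 h to TGF-β at 10 ng/mL, 2 SETD2 knockout clones called KO1 and KO2 (CRISPR edits in exon 3), and a group labelled KO2 rescue. In 10% serum they were Rescue1 and Rescue2, which are single-cell clones with lentiviral full-length SETD2, and WT cells transduced in bulk with eGFP, SOX2, OCT2 or PRRX1. Each knockout group was 1 clone, both rescue clones descended from KO2, and serum differed between the first 5 groups and the other 6. Nothing in the labels says that the 2 libraries of a group came from separate cultures, so p-values measure the spread between these libraries, which may be technical.

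SETD2 is the methyltransferase that places H3K36me3 along transcribed gene bodies. Most ZNF genes of chromosome 19 arose by tandem duplication and encode a KRAB domain ahead of an array of C2H2 fingers; the fingers read DNA, and the KRAB domain recruits TRIM28, which brings the H3K9 methyltransferase SETDB1 and silences transposable elements and other targets. The bodies of these genes are known for carrying H3K36me3 together with H3K9me3, mainly over the exons that encode the fingers. The comparisons therefore ask how far the mRNA of these genes moved when SETD2 was lost and when it was supplied again. Histone marks and DNA methylation were not measured in these libraries.

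The approximate number of reads was 7700000 to 19000000 a library. SETD2 mRNA, which checks the labels, was 1956 ± 148 normalized counts in WT (mean ± SD, n = 2), 1088 ± 59.4 in KO1, 1051 ± 1.35 in KO2 and 10200 ± 305 in the rescue clones (n = 4). In the group labelled KO2 rescue it was 827 ± 10.5, below KO2. That label was therefore not borne out by SETD2 mRNA, and the group was kept apart. Other mRNAs did differ from KO2, such as PRRX1, at 0.331 ± 0.468 in this group and 31.6 ± 4.51 in KO2. Of the kidney tubule markers, PAX8, PAX2, KRT8 and KRT19 were at 404 normalized counts or more in every library, while KRT18 and KRT7 went down to 61.9 and 24.4 and CDH16 and LHX1 to 0. Of the proximal tubule markers, GGT1 was 225 to 1091, and the receptor LRP2 did not pass 2.29 in any library. The summed level of 5 fibroblast markers (DCN, COL1A1, COL3A1, LUM and PDGFRA) was 98933 to 236441 in the knockout libraries, 826 and 12421 in WT, 46297 and 47770 after TGF-β and 795 to 1486 in the rescue clones, and that of 10 tubule markers was 17876 to 27013 in the knockouts and 32765 and 34531 after TGF-β against 39841 and 43450 in WT. Endothelial and leukocyte markers summed to 3 to 154 and 11 to 380, with CD3E at 0 in every library. The highest fibroblast sum, in KO1 replicate 1, was almost all DCN, which reached 234800. The other genes of that list together held less in that library than the WT mean of COL1A1, 6226. COL3A1 did not pass 22.8 in any library, so the sum was not a rise of every marker. The fibroblast sum was higher and the tubule sum lower than in WT in the KO1, KO2 and TGF-β libraries. The tubule sum was also lower than in WT in the 8 libraries of transduced WT cells, at 26598 to 31360. In the group labelled KO2 rescue the tubule sum was 44346 and 45368, above WT. Its fibroblast sum was 40967 and 38451, below KO2 and above WT. These sums moved with several of the comparisons, and their part in the results below was not tested.

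Of the 240 genes, 212 reached 10 normalized counts in 2 or more libraries and were tested, 28 were not tested, and 8 of those 28 were listed at 0 in all libraries. The 28 included ZNF676, ZNF729, ZNF99, ZNF723 and ZNF728 of the proximal short arm, and the highest value any of them reached was 34.9. Expression was low, as is usual for this family: the median tested gene averaged 100 normalized counts over all libraries, against 146.0 over all 14585 genes tested. A match to the KRAB box was found in the coding sequence of 208 of the 240 genes, and the number of C2H2 fingers ranged from 1 to 39, with a median of 13. Per kb of transcript, the most abundant gene was ZNF146 (also called OZF), which consists of fingers without a KRAB domain, at 731 normalized counts per kb. It was followed by ZNF83 (374 per kb), ZNF160 (288), ZNF468 (263) and ZNF302 (232). ZNF146 ranged from 1557 to 3470 normalized counts across the 22 libraries, with its highest values in the transduced WT cells.

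Together the 240 genes made up a small and shifting share of the mRNA. The share was 0.23% and 0.237% of normalized counts in the 2 WT libraries, 0.198% and 0.208% in KO2, 0.181% and 0.182% in KO1, and 0.221% and 0.225% after TGF-β. It was 0.266% to 0.295% in the rescue clones and 0.314% to 0.347% in the 8 libraries of transduced WT cells. KO1 had the lowest share, the transduced WT cells had the highest, and these ranges did not meet those of any other group. The summed normalized counts of the members did not fall in the knockouts. They were 29954 and 28868 in WT, 30069 and 30421 in KO1, and 29404 and 30320 in KO2. Library totals were larger in the knockouts, at 16636313 and 16758645 in KO1 and 14848117 and 14571709 in KO2, against 13001168 and 12164417 in WT. ZNF genes of other chromosomes, 243 in all, were also lowest in KO1, at 0.351% and 0.376%, and highest in transduced WT cells, at 0.59% to 0.613%.

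**Figure D1:**
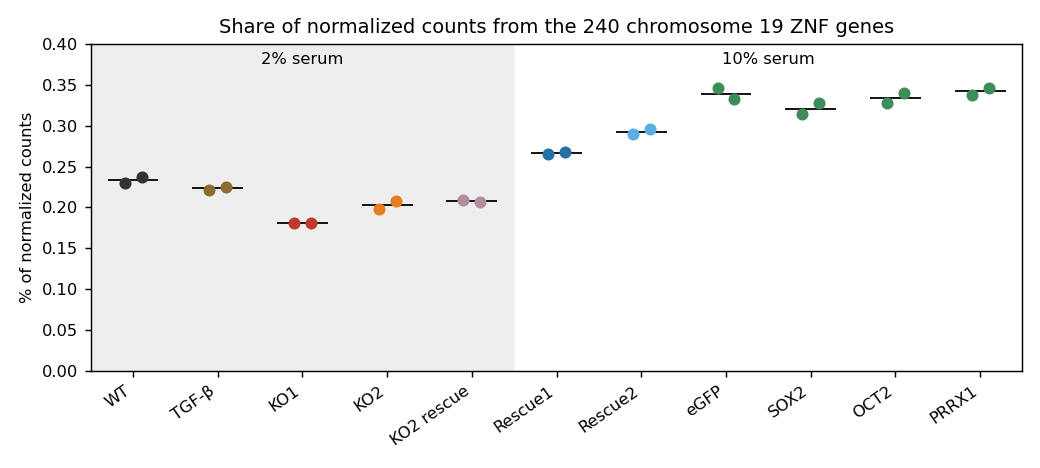
Percentage of all normalized counts that came from the 240 chromosome 19 ZNF genes, by group; each point is 1 library, lines are means of the 2 libraries, and shading marks the groups in 2% serum. KO1 libraries sit at 0.181% and 0.182% and eGFP libraries at 0.346% and 0.332%.

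Across the tested members, the median log2 change against WT was -0.22 in KO1 and -0.18 in KO2, where the median of all genes tested was 0 in both. Between the rescue clones and KO2 it was 0.20 (all genes, -0.03). In KO1, 124 of the 212 members lay below WT and 88 above; in KO2, 120 lay below and 92 above. The 215 tested ZNF genes of other chromosomes had medians of 0 in KO1 and 0.07 in KO2, and the 736 other protein-coding genes of chromosome 19 had 0.07 and -0.11. KO1 and KO2 were compared with the same WT libraries, and KO2 served in both the knockout and the rescue comparison, so these values stand side by side and do not count as separate evidence. When libraries were brought to equal totals, the median of all genes itself moved to -0.39 in KO1, -0.20 in KO2 and 0.26 in the rescue comparison, and the members lay -0.20, -0.21 and 0.24 from those medians.

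**Figure D2:**
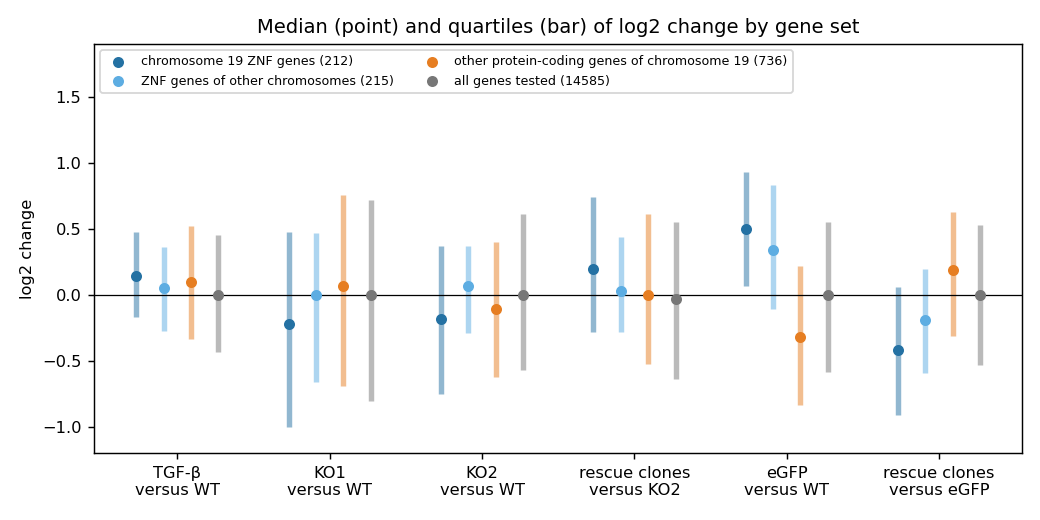
Log2 change by gene set in 6 comparisons; points are medians over genes and bars run between the quartiles, with the number of genes tested in the legend. Chromosome 19 ZNF genes have medians of -0.22 and -0.18 in the knockout clones, 0.20 for rescue against KO2 and 0.50 for eGFP against WT.

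In KO1, 9 of 212 members were called higher and 31 lower than WT, at an adjusted p under 0.05 and a change over 1 on the log2 scale. Over all genes tested 12% were called higher and 13.1% lower; among members these shares were 4.25% and 14.6%. At equal library totals the split became 5 higher and 55 lower, where the median of all genes was -0.39. No share over all genes is given at that scaling, so this split is not a result about the members. Members that fell furthest included ZNF418, a KRAB repressor, ZNF667 (also called MIPU1) and ZNF582. ZNF418 was 121 and 61.4 in WT and 1.68 and 0 in KO1, at least 30.3-fold lower taking 3 counts per library as the floor. ZNF582 went from 55.6 ± 10.6 to 4.31 ± 6.09 (log2 change -4.18 ± 0.82 SE, adjusted p = 0.0008). ZNF175 and ZNF442 were at 0 in both KO1 libraries, from 10.6 ± 0.673 and 10.6 ± 0.528 in WT, which is at least 3.52-fold lower for either. Among better-expressed members, ZNF558 fell from 398 ± 58.8 to 145 ± 18.9 and ZNF544 from 614 ± 13.6 to 286 ± 48.7. Among called members with counts in WT, the largest rises were those of ZNF432, ZNF616, ZNF841 and ZNF566. ZNF566 went from 61.4 ± 9.34 to 193 ± 42.3 (log2 change 1.63 ± 0.32 SE, adjusted p = 0.00093).

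In KO2, 11 of 212 members were called higher and 13 lower, where 9.02% and 7.29% of all genes tested were called in these directions and the members' shares were 5.19% and 6.13%. At equal library totals, 8 were higher and 27 lower, where the median of all genes was -0.20 and no share over all genes is given. ZNF667 and ZNF382 fell furthest. ZNF773 was 112 and 131 in WT and 20.5 and 7.72 in KO2 (log2 change -3.16 ± 0.46 SE, adjusted p = 8.1e-05). ZNF671 fell from 93.9 ± 6.9 to 16.6 ± 0.692. ZNF790 rose from 10.3 ± 6.01 to 72.3 ± 3 (log2 change 2.80 ± 0.65 SE, adjusted p = 0.00389), and ZNF155 from 4.39 ± 3.01 to 31 ± 15.1. ZNF610 was 14.7 and 19 in WT and 55 and 69 in KO2, where groups without overlap were a condition for naming it.

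Members called in the same direction in each clone are given with both values. ZNF418 also fell in KO2, to 27.5 and 16.5. ZNF714 had 268 and 365 normalized counts in WT, 46.5 and 29.1 in KO1 and 82.5 and 81.7 in KO2, so every knockout library lay below both WT libraries. ZNF772 had 201 and 208 in WT, 70.9 and 55.1 in KO1 and 49.6 and 78.4 in KO2. ZNF431, a KRAB repressor, had 233 and 186 in WT, 111 and 42.1 in KO1 and 110.0 and 75.5 in KO2. ZNF829 and ZNF433 were lower in the same way, from WT means of 89.7 and 79.1 to 43.6 and 33.6 in KO1 and 44 and 14.7 in KO2. ZNF154, whose promoter is known as a site of DNA methylation in carcinomas, was 12.3 and 10.9 in WT, 1.94 and 0 in KO1 and 0 in both KO2 libraries, a change close to the limit of what these read numbers resolve. On the higher side, ZNF841 had 218 and 174 in WT, 674 and 1053 in KO1 and 637 in both KO2 libraries. ZNF253 had 145 and 126 in WT, 382 and 399 in KO1 and 521 and 540 in KO2. ZNF264 had 253 and 279 in WT and between 604 and 730 in the 4 knockout libraries. ZNF208 was at 0 in both WT libraries and at 4.1 to 21.3 in the knockouts. That is at least 5.71-fold higher for KO1 and 1.92-fold for KO2. However, ZNF208 met the minimum level for testing only through its KO1 libraries. It was thus tested because it was high in KO1, and its calls cannot be weighed like those of the other members.

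At the other end, some well-expressed members barely moved. Among members averaging at least 100 normalized counts, the smallest summed changes in the clones belonged to ZNF414, ZNF224, ZNF888, ZNF440 and ZNF302. ZNF440 was 275 in each WT library, 253 and 267 in KO1 and 302 and 279 in KO2. ZNF302 had log2 changes of 0.05 ± 0.16 SE in KO1 and 0.11 ± 0.16 in KO2.

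The members were also described by position along the chromosome. Split wherever neighbouring members lie more than 1 Mb apart, the 240 genes formed 16 runs, and 6 runs with at least 20 members held 204 of them. In run 5, on the proximal short arm from 19.7 to 24.1 Mb (GRCh38, GENCODE 44; 35 members, 27 tested), the median log2 change was -0.86 in KO1 and -0.71 in KO2, with 18 and 19 members below WT. In run 16, the most distal, from 55.5 to 58.5 Mb (56 members, 53 tested), the medians were -0.63 and -0.55, with 38 and 42 members below WT. Run 3, from 11.5 to 12.6 Mb, had medians of -0.37 and -0.46 over 17 tested members. In run 15, from 51.6 to 53.6 Mb (39 members, 37 tested), the medians were 0.12 and 0.27, and those of runs 9 and 12 lay between -0.13 and 0.29. KO1 calls in run 5 were 10 lower and 2 higher, and in run 16 they were 9 lower and 1 higher; run 15 had 5 higher and 2 lower. As shares of the members tested, 37% of run 5 and 17% of run 16 were called lower and 13.5% of run 15 was called higher, beside 13.1% lower and 12% higher over all genes tested, so the shares of runs 16 and 15 lay near the background. In KO2, 2 members of run 5 were called lower and 3 higher (7.41% and 11.1%), so the KO1 share of run 5 was not repeated. Run 16 had 6 lower and 1 higher in KO2 (11.3% and 1.89%), and run 15 had 0 lower and 4 higher (0% and 10.8%). Over all genes tested, 7.29% were lower and 9.02% higher in KO2. Differences between runs were not tested.

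**Figure D3:**
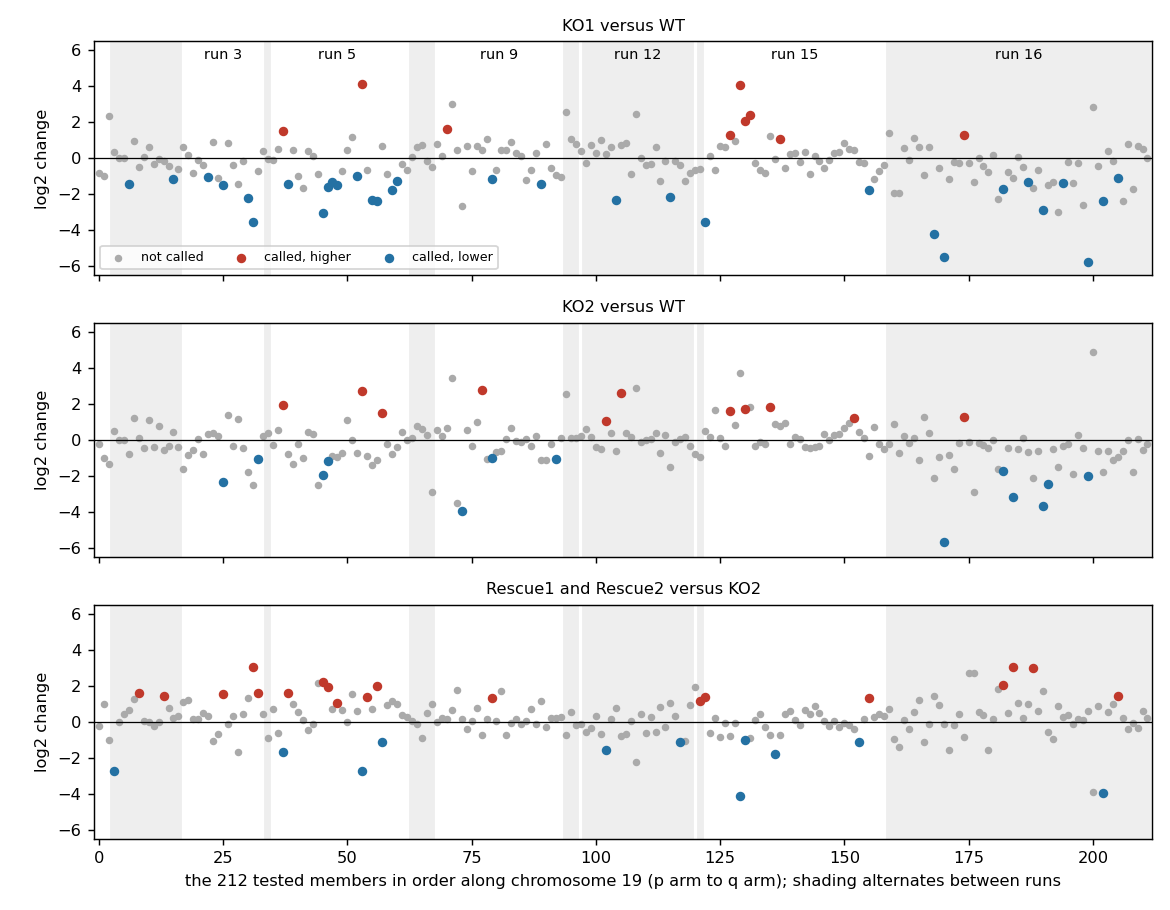
Log2 change of each of the 212 tested members in chromosome order, for KO1 and KO2 against WT and for the rescue clones against KO2; coloured points were called and shading alternates between runs. In KO1, 10 of 27 tested members were called lower in run 5, 9 of 53 in run 16 and 2 of 37 in run 15. In KO2 these numbers were 2, 6 and 0.

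Inside run 15 lies a stretch of 149 kb, picked after its values were seen, with 5 neighbouring members on the minus strand in the order ZNF615, ZNF614, ZNF432, ZNF841 and ZNF616 (chr19:51991332-52139938). All 5 had positive changes in each clone. For ZNF615 the log2 changes were 1.30 ± 0.34 SE in KO1 and 1.61 ± 0.34 in KO2. For ZNF841 they were 2.1 ± 0.20 and 1.70 ± 0.20, and for ZNF616 2.42 ± 0.75 (adjusted p = 0.0182) and 1.84 ± 0.75 (adjusted p = 0.0818). ZNF614, at an average of 13.2 normalized counts, had 0.95 and 0.84 and was called in neither. ZNF432 rose by 4.09 ± 1.42 SE in KO1 (adjusted p = 0.033) and was 3.74 ± 1.42 in KO2 (adjusted p = 0.0633), but its WT libraries were far apart, at 149 and 17.4. ZNF432 and ZNF841 overlap on the same strand, so the quantification could divide reads between them. Their sum was 368 and 192 in WT, 1366 and 2213 in KO1, 1346 and 1331 in KO2, and 259 to 535 in the rescue clones, and the knockout libraries lay above all of the others except the group labelled KO2 rescue (1387 and 1332).

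A stretch of run 5, also picked after its values were seen, held members with negative changes. It spans 345 kb of the proximal short arm (chr19:21082159-21427577) with 5 neighbouring members in the order ZNF714, ZNF431, ZNF708, ZNF738 and ZNF493. In KO1 their log2 changes were -3.05 for ZNF714, -1.59 for ZNF431, -1.31 for ZNF708 and -1.50 for ZNF738, all called, and -0.71 for ZNF493, which was not. In KO2, ZNF714 (-1.92) and ZNF431 (-1.18) were called, while ZNF708 (-0.90), ZNF738 (-0.96) and ZNF493 (-0.71) were not. Between rescue clones and KO2 the changes were 2.23, 1.92, 0.70, 1.03 and 0.67 in the same order, and ZNF714, ZNF431 and ZNF738 were called.

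Against KO2, 19 of 212 members were higher and 11 lower in the rescue clones, with 7.84% and 9.65% of all genes tested called in these directions. The members' shares were 8.96% and 5.19%. At equal library totals the split was 36 higher and 6 lower, where the median of all genes was 0.26 and no share over all genes is given. Serum differed between the 2 sides of this comparison, so the effects of SETD2 and serum cannot be told apart here. ZNF714, ZNF772 and ZNF773 rose: ZNF714 was 483 and 428 in Rescue1 and 277 and 400.3 in Rescue2, against 82.5 and 81.7 in KO2 (log2 change 2.23 ± 0.23 SE, adjusted p = 2.2e-06). ZNF773 went from 14.1 ± 9.01 to 113 ± 26.2 (log2 change 3.03 ± 0.39 SE). ZNF431, ZNF433, ZNF829, ZNF93, ZNF544 and ZNF121 were also called higher; ZNF93, which represses LINE-1 elements, went from 156 ± 0.314 to 477 ± 32.7 (1.61 ± 0.13 SE). ZNF442 and ZNF134 had rises of 3.07 and 3.00 on the log2 scale, but both were near the floor in KO2, at 1.6 ± 2.27 and 2.72 ± 2.15. On the lower side were ZNF253, which fell from 530.3 ± 13.4 to 167 ± 30.8, ZNF841, ZNF880, ZNF404, ZNF677 and, with the largest falls, ZNF432, ZNF135 and ZNF557. ZNF91, a repressor of SVA elements, fell from 194 ± 35 to 94 ± 45.5 (-1.15 ± 0.25 SE). By run, the medians were 0.70 in run 5, 0.37 in run 16, 0.43 in run 3 and -0.06 in run 15.

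Another set of members stayed low in the rescue clones. ZNF667 had 172 and 139.6 normalized counts in WT, 2.07 and 2.91 in KO1 and 0 and 8.45 in KO2. It had 4.65 and 3.47 in Rescue1, 0 and 1.7 in Rescue2, and 277 to 584 in eGFP. No SETD2-edited or rescued library passed 16.7, and no WT or transduced library was under 139.6. Between rescue clones and KO2 its log2 change was -0.10 ± 0.69 SE (adjusted p = 0.936). In KO1 it was at least 51.8-fold lower than in WT. ZNF382, a KRAB repressor known to be silenced by methylation in tumours, was 42.7 and 43.8 in WT, 1.01 and 3.18 in KO2, 0 to 6.48 in the rescue clones and 79.2 and 77.9 in eGFP, but 0 and 48.8 in KO1, where the libraries of the clone did not match each other. ZNF135 was 130.3 and 105 in WT, 24.1 and 45.1 in KO2 and 0 to 6.57 in the rescue clones, so it was lower after rescue than before (-3.94 ± 0.56 SE, adjusted p = 6.3e-05). ZNF671 was at 0 and 6.95 in Rescue1 and at 48.1 and 54.1 in Rescue2, against 115 and 136 in eGFP.

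**Figure D4:**
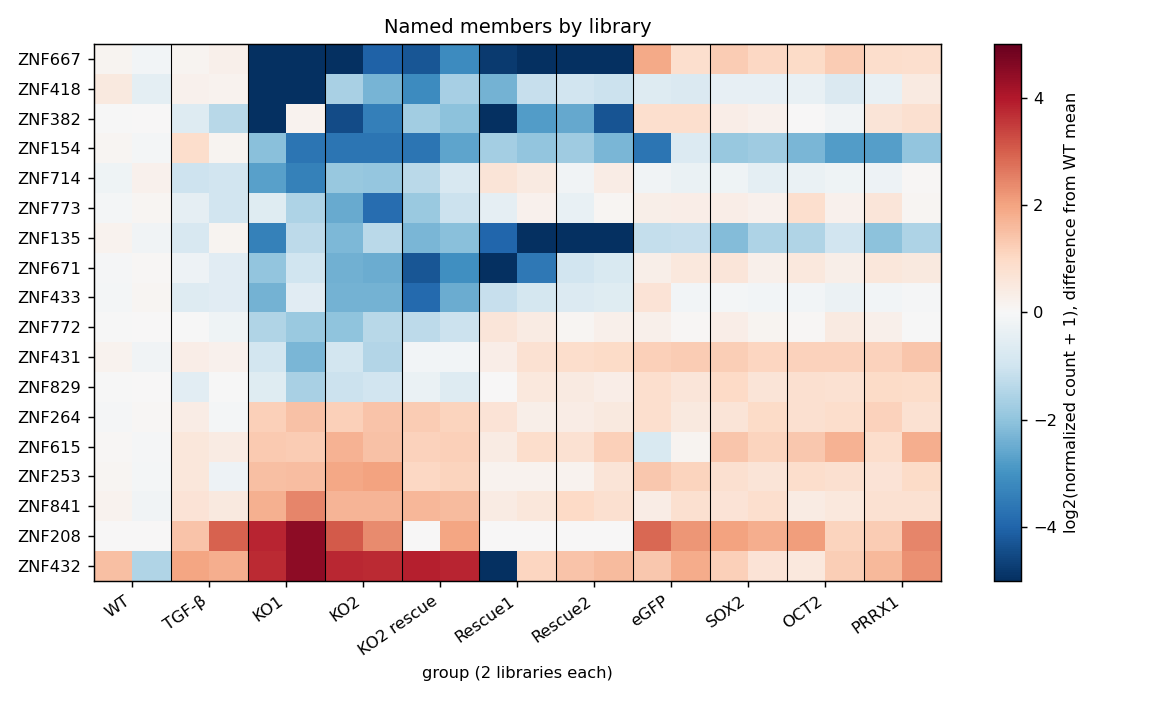
Log2(normalized count + 1) of 18 named members in each of the 22 libraries, as the difference from the WT mean (colour, limited to -5 and 5), ordered by their mean in the knockout libraries. ZNF667 and ZNF135 stay low in the rescue clones, whereas ZNF714, ZNF772 and ZNF431 lie above KO2 there.

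The promoters of 2 members that stayed low and of 2 that rose are printed because methylation of CpG sites in such promoters is a known way of silencing these genes, although it was not measured here. The sequences are the 250 bases before the RefSeq gene start on GRCh38.p14, read 5′ to 3′ on the strand of the gene, with each CG dinucleotide in capitals. ZNF667 lies on the minus strand (chr19:56477346-56477595), ZNF135 on the plus strand (chr19:58058989-58059238), ZNF714 on the plus strand (chr19:21081953-21082202) and ZNF772 on the minus strand (chr19:57477567-57477816). The first 2 stayed low in the rescue clones and the other 2 rose.
ZNF667: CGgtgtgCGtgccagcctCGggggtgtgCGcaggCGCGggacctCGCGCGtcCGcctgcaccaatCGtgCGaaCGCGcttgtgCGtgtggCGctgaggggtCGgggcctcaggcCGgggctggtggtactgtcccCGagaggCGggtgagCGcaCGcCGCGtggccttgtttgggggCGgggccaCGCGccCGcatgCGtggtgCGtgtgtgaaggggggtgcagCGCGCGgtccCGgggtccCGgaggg
ZNF135: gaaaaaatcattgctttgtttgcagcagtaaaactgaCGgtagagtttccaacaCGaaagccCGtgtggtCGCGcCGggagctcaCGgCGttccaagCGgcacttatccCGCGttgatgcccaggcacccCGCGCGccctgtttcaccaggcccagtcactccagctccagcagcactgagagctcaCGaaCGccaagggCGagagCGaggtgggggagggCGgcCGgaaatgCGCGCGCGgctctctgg
ZNF714: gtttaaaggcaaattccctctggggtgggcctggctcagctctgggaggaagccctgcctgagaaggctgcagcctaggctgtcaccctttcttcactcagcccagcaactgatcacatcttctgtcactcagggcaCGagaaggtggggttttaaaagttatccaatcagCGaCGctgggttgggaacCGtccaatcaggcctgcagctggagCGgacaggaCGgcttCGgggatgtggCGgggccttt
ZNF772: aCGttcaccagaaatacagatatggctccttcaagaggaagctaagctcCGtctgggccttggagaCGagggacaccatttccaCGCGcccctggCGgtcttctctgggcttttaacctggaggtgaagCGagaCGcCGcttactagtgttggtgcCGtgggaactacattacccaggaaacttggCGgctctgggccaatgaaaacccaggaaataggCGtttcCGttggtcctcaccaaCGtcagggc
These windows hold 35, 24, 8 and 14 CG dinucleotides. CpG content did not sort all members that way, since ZNF671, which also stayed low in Rescue1, has 9, while ZNF773 and ZNF829, which rose, have 22 and 26. Over the 210 members with a promoter in the table the median was 16, and 85.2% held at least 10, against a median of 11 and 51.9% over all 27305 promoters. The 4 were chosen after their expression was known.

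A comparison of the rescue clones with eGFP cells kept serum at 10% and shared no library with the knockout comparisons. Both rescue clones descended from KO2, however, so differences fixed in that clone could recur, and overlaps with KO2 are not independent evidence. SETD2 mRNA was 10200 ± 305 in the rescue clones and 3037 ± 128.5 in eGFP. Of 212 members, 5 were higher and 15 lower in the rescue clones, where 6.47% and 6.66% of all genes tested were called in these directions; the members' shares were 2.36% and 7.08%. The median change was -0.42 (all genes, 0), with 151 members below eGFP and 61 above. Leaving out eGFP replicate 1 reduced the 20 calls to 11. The overlaps that follow are given without the matching overlaps over all genes tested. Of the 13 members lower in KO2 than in WT, 4 were also lower here (ZNF667, ZNF382, ZNF671 and ZNF607), which is 4 of the 15 lower here. Of the 11 members higher in KO2, 2 were lower here (ZNF208 and ZNF404) and 1 was higher (ZNF615). Of the 31 members lower in KO1, 4 were lower here and 0 higher, and of the 9 higher in KO1, 1 was lower and 1 higher. ZNF667 had the largest change (-7.13 ± 0.69 SE, adjusted p = 1.9e-06). ZNF160, one of the most abundant members, fell from 1887 ± 228 in eGFP to 923 ± 37 in the rescue clones (-1.03 ± 0.10 SE). Its level in WT in 2% serum was 884 ± 115, close to that of the rescue clones. ZNF358 was at 0 in all 4 rescue libraries and at 23.7 and 51 in eGFP, but also at 0 in both WT libraries and in 1 SOX2 library beside 53.3 in the other. ZNF557 and ZNF350 were lower too, and for ZNF350, which binds BRCA1, the eGFP libraries differed widely, at 108 and 21.9. The members called higher were ZNF653, ZNF324, ZNF428, ZNF615 and ZNF414; of these ZNF324 went from 35.7 ± 10.7 to 114 ± 26.6 (1.65 ± 0.31 SE).

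**Figure D5:**
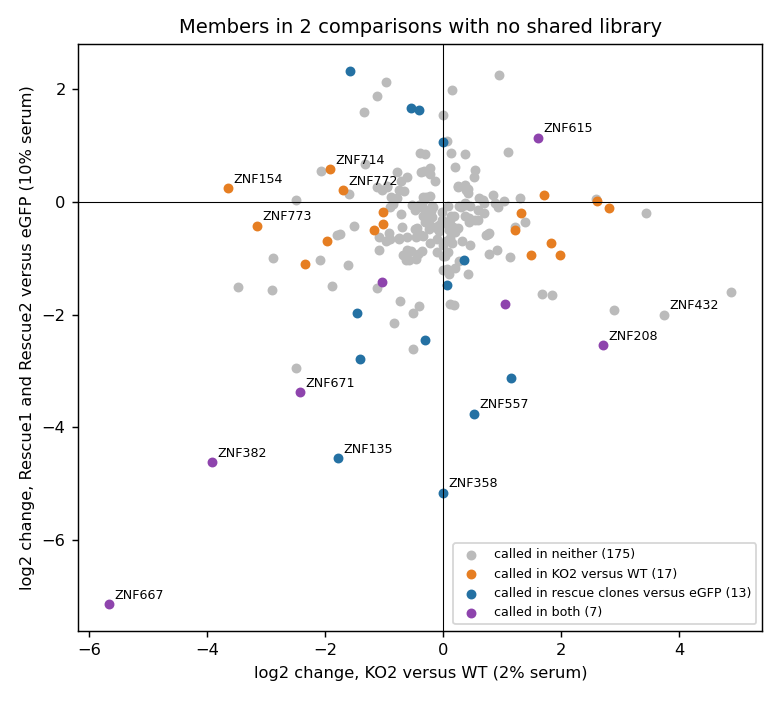
Log2 change of each tested member in KO2 against WT (horizontal) and in the rescue clones against eGFP (vertical). The comparisons use separate libraries, but the rescue clones descended from KO2. Colours show in which comparison a member was called. ZNF667, ZNF382 and ZNF671 lie at the lower left, and ZNF714, ZNF772 and ZNF773 lie to the left near 0 on the vertical axis.

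The members were also split by their KRAB match. In KO1 the 187 tested members with a match had a median of -0.27 and the 25 without one had 0.13. In KO2 the medians were -0.20 and -0.01, for eGFP against WT 0.54 and -0.08, and for rescue clones against eGFP -0.46 and 0.21. KRAB members made up 30 of the 31 called lower in KO1 and all 9 called higher, where 187 of the 212 tested members had a match. The other member called lower was ZNF714, for which no coding transcript searched gave a KRAB match. The difference between these groups was not tested.

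TGF-β moved few members. Against untreated WT, 3 of 212 were higher and 1 lower, with 3.58% and 4.26% of all genes tested called in these directions. ZNF552 fell from 198 ± 20.2 to 88 ± 5.71 (log2 change -1.16 ± 0.27 SE, adjusted p = 0.00683). ZNF846 rose from 111 ± 3.23 to 247 ± 11.3 and ZNF175 from 10.6 ± 0.673 to 53.5 ± 10.8. ZNF649 was 0 and 1.4 in WT and 19.1 and 14.7 with TGF-β, at least 5.64-fold higher. The median change was 0.14, and -0.10 at equal library totals, which put all genes at -0.20 and the split at 2 higher and 2 lower. Without TGF-β replicate 1 only 1 call was left. ZNF667 was 168 and 185 with TGF-β, overlapping WT.

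The members also differed between eGFP-transduced WT cells and WT cells, which differ in serum, vector and selection together, so these cannot be told apart. SETD2 mRNA differed as well, at 3037 ± 128.5 in eGFP and 1956 ± 148 in WT (log2 change 0.64 ± 0.07 SE, under the fold threshold). Here 23 of 212 members were higher and 4 lower, with 6.49% and 6.24% of all genes tested called in these directions; the members' shares were 10.8% and 1.89%. The median was 0.50, with 162 members above WT and 50 below, against 0.34 over ZNF genes of other chromosomes and -0.32 over other protein-coding genes of chromosome 19. Without eGFP replicate 1 the 27 calls became 15. ZNF791 rose from 379 ± 50.9 to 835 ± 57, ZNF254 from 311 ± 7.74 to 674 ± 34.7, and ZNF317 from 22.7 ± 1.02 to 182 ± 2.53. The call of ZNF260 rests on a WT library listed at 0 beside 83.5 in the other. Against eGFP, 0 members were called with SOX2, OCT2 or PRRX1 by limma's test, where 0.0137%, 0.0274% and 0.0343% of all genes tested were called higher and 0.00686% lower in each. At an unadjusted p under 0.05 there were 17, 9 and 8 members (8.02%, 4.25% and 3.77%, beside 6.76%, 7.03% and 4.61% of all genes tested), with medians of -0.05, -0.04 and 0.

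In the group labelled KO2 rescue, where SETD2 mRNA was not raised, 2 of 212 members were higher and 1 lower than in KO2, with 1.65% and 2.52% of all genes tested called in these directions. ZNF93 rose from 156 ± 0.314 to 322 ± 38.3 and ZNF773 from 14.1 ± 9.01 to 45 ± 16.6, while ZNF562 fell from 104 ± 23.7 to 48.6 ± 4.77. At equal library totals 3 were higher and 0 lower, where the median of all genes was 0.06 and no share over all genes is given. ZNF667 was 7.13 and 16.7 and ZNF841 was 616 and 594.

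The 2 knockout clones also differed from each other: 2 of 212 members were higher and 8 lower in KO1 than in KO2, where 2.48% and 4.49% of all genes tested were called in these directions, and without KO1 replicate 1 the 10 calls became 33. Between Rescue1 and Rescue2, 1 member was higher and 1 lower (all genes tested, 0.576% and 0.418%). Against WT in 2% serum the rescue clones had 6 members higher and 5 lower, with 6.11% and 5.92% of all genes tested called in these directions.

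Several members have a role of their own on record. ZNF93 fell in KO1 (271 ± 2.2 to 103 ± 13.4; -1.40 ± 0.15 SE) and was 156 ± 0.314 in KO2 (-0.79 ± 0.15, adjusted p = 0.00081, under the fold threshold). ZNF91 was higher in KO2 (1.48 ± 0.29 SE) and had 0.70 ± 0.29 in KO1 (adjusted p = 0.0716). ZNF274, which binds the 3′ ends of other ZNF genes and brings SETDB1 there, was 275 and 252 in WT, 240.1 and 240.8 in KO1 and 72.2 and 207 in KO2, and was called in neither. ZNF473, a component of histone pre-mRNA processing, was 0.93 lower on the log2 scale in KO2 at an adjusted p of 0.0592, and was higher in the rescue clones than in KO2 (1.16 ± 0.30 SE). ZNF224, ZNF331, ZNF568 and ZNF808 were called in neither clone, with log2 changes between -0.68 and 0.25, and ZNF420 did not pass 13.5 in any library. ZNF568 and ZNF829 start head to head, and their promoter windows overlap.

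Of the 23 partner genes of the KRAB pathway and of heterochromatin, all tested, 1 was higher and 6 lower in KO1, and 2 were higher and 7 lower in KO2. These are 4.35% and 26.1% of the list in KO1 and 8.7% and 30.4% in KO2, beside 12% and 13.1% and 9.02% and 7.29% of all genes tested. In the rescue clones 6 (26.1%) were higher and 0 lower than in KO2, beside 7.84% and 9.65% of all genes tested. TRIM28, the corepressor that KRAB domains bind, was 5641 ± 619 in WT, 3487 ± 205 in KO1 (log2 change -0.69 ± 0.10 SE, under the fold threshold) and 2590 ± 131 in KO2 (-1.12 ± 0.10, adjusted p = 9.4e-07). It was 4605 ± 490.3 in the rescue clones. SETDB1 was not called, at 925 ± 172 in WT, 790 ± 156 in KO1 and 796 ± 90.2 in KO2. The genes called higher were ATF7IP in KO1 (log2 change 1.04 ± 0.14 SE), and DAXX (3.04 ± 1.09) and MPHOSPH8 (1.36 ± 0.39) in KO2. In KO2, ATF7IP had 0.89 ± 0.14, under the fold threshold. The maintenance DNA methyltransferase DNMT1 fell from 1873 ± 13 to 672 ± 75.7 and 749 ± 38.1, and its partner UHRF1 from 222 ± 53.2 to 29.7 ± 25.9 and 45.5 ± 45.1. Both were higher in the rescue clones, at 2265 ± 91.6 and 726 ± 333. SUV39H1, another H3K9 methyltransferase, fell to 105 ± 16.9 and 137 ± 7.71 from 418 ± 49.4, and it was also lower with TGF-β (195 ± 31.3). Lower levels of some of these genes were also measured in eGFP-transduced WT cells, which differ from WT in serum, vector and selection together. There UHRF1 was 15.6 ± 4.36 and SUV39H1 was 158 ± 33.9, both called lower than WT, and TRIM28 was 3405 ± 423, below its mean in KO1. DNMT1 was 1582 ± 348 there and was not called (log2 change -0.26 ± 0.15 SE). The cause of these differences was not tested.

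Precision differed between groups. The median absolute log2 difference between the duplicates of a group, over the tested members, was 0.253 to 0.396 in 10 groups and 0.604 in KO1; for all genes tested it was 0.223 to 0.345 in those 10 groups and 0.425 in KO1. In 6 members a library was listed at 0 while the other of its group held at least 50. Of the 240 members, 81 overlap another gene of the table on the opposite strand and 72 on the same strand, and many have close paralogs, so that part of a value can belong to a neighbour or copy. Of the 62 calls of members named by rule, 32 held with each library of their comparison left out in turn. Another 29 were lost in at least 1 such fit, and 1 (ZNF208 in KO1) was refitted without either WT library only. With either KO1 library left out, ZNF208 no longer met the minimum level for testing. Calls that held in both clones were those of ZNF667, ZNF714, ZNF772, ZNF841, ZNF253, ZNF264 and ZNF615, and in KO2 those of ZNF773 and ZNF790 held too. The calls of ZNF382, ZNF671, ZNF610 and ZNF829 in KO2 were lost with any 1 library left out, at log2 changes from -4.46 to -3.40, -2.50 to -2.35, 1.64 to 1.99 and -1.09 to -0.94. The same was true of ZNF442 in KO1 (-3.58 to -3.48) and of ZNF175 with TGF-β (2.02 to 2.43), and the call of ZNF557 between rescue clones and KO2 was lost in 5 of 6 fits (-3.65 to -1.80). Without KO1 replicate 2, ZNF431 had -0.90 and ZNF829 had -0.59 in KO1, and without WT replicate 2 ZNF432 had 2.58, none of them called.

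A lower level in a line cannot be told apart as fewer expressing cells or less RNA per cell.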

How the data were processed

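RNA-seq of 22 RPTEC libraries in 11 groups of 2 was analysed; groups were taken from the labels. The authors quantified reads with Salmon 1.9.0 on the Ensembl 94 cDNA of GRCh38 and used DESeq2 1.26.0 (versions from the submitters' processing notes); whether counting used strand is not given in the sources used here. The deposited values are log2 values for 36859 genes. All libraries share the minimum 11.32, and inverting a variance-stabilizing transformation places low values on whole multiples of a library-specific step, so they were converted back to normalized counts before testing, where the plan had taken them for linear values. Approximate reads are the total divided by that step.

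Symbols, positions and transcripts came from GENCODE 44, which holds 33878 of the genes; it lists 246 genes that meet the rule, of which 240 are analysed here. KRAB matches and fingers were searched in translated coding sequences, with a weight matrix over 40 residues learnt from 239 sequences and a threshold of 0 bits. Promoters are from RefSeq. Testing used the moderated test of limma 3.58.1 (R 4.3.3), with a variance trend, on log2(normalized count + 1), all libraries in 1 fit, for genes reaching 10 normalized counts in 2 or more libraries, and Benjamini-Hochberg adjustment over 14585 genes. It understates changes of low genes. A gene was called at an absolute log2 change over 1 with an adjusted p under 0.05. Errors are SD of normalized counts or SE of log2 changes. A group with every library at 3 or fewer counts was taken at that floor. The procedure was tested on simulated data. Python 3.11.15, numpy 2.4.6, pandas 2.3.3 and matplotlib 3.10.9 were used.

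Named members are, for KO1, KO2 and TGF-β against WT and for the rescue clones against KO2 and eGFP, up to 5 called rises and 5 falls without overlap of groups, those called alike in both knockout clones, the 5 highest per kb, the 5 flattest, and 12 with known roles; others were named after their values were seen. Members and lists were chosen with earlier results of these data known. Alternatives were other pseudocounts, filters and scalings, the deposited log2 scale, fewer libraries, a replicate block and each library left out. Same-numbered libraries did not deviate together (55 correlations, -0.082 to 0.047), so no pairing was used. The SOX2 gene was not analysed here.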

Additional observations from a re-analysis of the deposited data

Results flagged for a closer look

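Between the 2 knockout clones, the test of the difference was passed by 10 members, 8 lower and 2 higher in KO1 than in KO2 (limma, Benjamini-Hochberg over all genes tested). The log2 differences were -4.05 for ZNF175, -3.77 for ZNF418, -2.77 for ZNF579, -2.32 for ZNF790, -1.58 for ZNF562, -1.37 for ZNF69, -1.14 for ZNF714 and -1.03 for ZNF552. They were 1.03 for ZNF329 and 2.09 for ZNF773. ZNF175 was at 0 in KO1 and 15.6 ± 1.22 normalized counts in KO2 (SD, n = 2), at least 5.2-fold lower. ZNF773 was 60.5 ± 27.7 in KO1 and 14.1 ± 9.01 in KO2. Without KO1 replicate 1 the 10 calls became 33.

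Between the 2 rescue clones, ZNF671 was lower in Rescue1 by -4.21 on the log2 scale (3.48 ± 4.92 against 51.1 ± 4.27, adjusted p = 0.0043) and ZNF285 was higher by 1.46 (49 ± 9.94 against 17.5 ± 6.11, adjusted p = 0.0431). Each clone of either kind is 1 line, so clone and genotype cannot be told apart.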

How the results depend on the processing

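Of 831 recomputed values of named members, 650 kept direction and call, 181 kept direction but missed a threshold and 0 reversed; 74 of the 286 values with a library left out missed it, which touched 29 of 62 calls, as did 30 of 62 with only the compared libraries fitted and all 62 on the deposited log2 scale. On that scale, where differences between low values are compressed so that a change of 1 is rarely reached, 0 members were called in TGF-β, KO1 and KO2 against WT, KO1 against KO2, rescue clones against KO2 and eGFP, labelled KO2 rescue against KO2, and eGFP against WT, and their medians were 0.01, -0.02, -0.01, -0.00, 0.02, -0.04, -0.00 and 0.05, with -0.01 for SOX2. With only the compared libraries fitted, 0 members were called for TGF-β and for KO1 against KO2, 14 for KO1, 12 for KO2, 5 for labelled KO2 rescue and 6 for eGFP against WT. With no fold threshold the counts were 11 for TGF-β, 16 for KO1 against KO2, 56 and 48 for rescue clones against KO2 and eGFP, 6 for labelled KO2 rescue and 51 for eGFP against WT. At equal library totals the medians were -0.10 for TGF-β, -0.59 for KO1, -0.41 for KO2, -0.26 for KO1 against KO2, 0.50 and -0.31 for rescue clones against KO2 and eGFP, 0.03 for labelled KO2 rescue, 0.47 for eGFP against WT and 0.00 for OCT2, and KO1 calls were 60 instead of 40. Shares of all genes called at equal totals are not given beside these counts. Scaling to the same median of other genes gave -0.06 for labelled KO2 rescue. Without a filter the medians were -0.14 for KO2, -0.34 for rescue clones against eGFP and 0.47 for eGFP against WT. With a mean of at least 50 they were -0.09 for KO2 and 0.53 for eGFP against WT, and 11 members were called in rescue clones against eGFP. Pseudocounts of 0.5 and 5 gave 0.52 and 0.46 for eGFP against WT.

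With each library left out, calls ranged from 1 to 6 for TGF-β, 28 to 49 for KO1, 16 to 22 for KO2, 7 to 33 for KO1 against KO2, 21 to 34 and 11 to 29 for rescue clones against KO2 and eGFP, 1 to 3 for labelled KO2 rescue, 15 to 25 for eGFP against WT, and 0 to 2, 0 to 1 and 0 to 2 for SOX2, OCT2 and PRRX1. The medians ranged from 0.09 to 0.18, -0.22 to -0.13, -0.16 to -0.11, -0.14 to -0.02, 0.16 to 0.26, -0.43 to -0.31, -0.03 to 0.01, 0.44 to 0.49, -0.08 to -0.03, -0.07 to -0.03 and 0.00 to 0.04 in that order. A lone remaining library was assumed to vary like the other groups. With the replicate number as a block, 41 members were called for KO1, 26 for KO2, 30 for rescue clones against KO2 and 20 against eGFP, and it changed no call of a named member; same-numbered libraries did not deviate together (-0.082 to 0.047). The cause of these shifts was not tested. Low counts limit members near the floor of 3.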
